A study of Mus musculus with 6 samples.

Results

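The insulin-like growth factor (IGF) family was examined in whole mouse skin as 9 genes, which were the ligands Igf1 and Igf2, the receptor Igf1r and the binding proteins Igfbp2, Igfbp3, Igfbp4, Igfbp5, Igfbp6 and Igfbp7. They were chosen by gene symbol from a table of 23951 genes, and all 9 had values above 0 in all 6 mice. The study compared 3 control mice (genotype JunB +/+) with 3 JunBΔep mice (genotype JunB dep), in which JunB, a subunit of the AP-1 transcription factor, was deleted in cells expressing keratin 5. All mice were on a C57Bl/6 background and 6 to 7 months old, and the skin of the JunB dep mice was lesional. The deletion reached keratinocytes and other cells that use the keratin 5 promoter, whereas the RNA came from the whole tissue, so transcripts of dermis, fat and muscle were measured with those of epidermis. A lower value in such tissue can come from fewer cells of a type or from less RNA per cell, and these cannot be told apart here.

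IGF1 and IGF2 are secreted growth factors that act through the IGF1 receptor, a tyrosine kinase, and through it on PI3K, Akt and mTOR. In tissue most of the ligand is held by secreted binding proteins, which prolong its life, keep it from the receptor or, after cleavage by proteases, release it. In skin the ligands are made mainly by dermal fibroblasts, while the receptor is used by keratinocytes and hair follicle cells.

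Values are FPKM, fragments scaled to transcript length and to the mapped total of the library. The genotypes were compared on log2(FPKM + 0.5) with limma over the 17021 genes whose mean reached 0.1 FPKM, with Benjamini-Hochberg adjustment, and a gene was called at an adjusted p below 0.05. Differences are JunB dep minus JunB +/+, so that a negative value is lower in JunB dep skin. The mice are numbered 0, 1 and 2 within each genotype as the labels do.

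The libraries differed in more than genotype. Junb itself was at 59.3, 72.4 and 56.9 FPKM in the controls and at 129.6, 42.8 and 28.1 FPKM in JunB dep. The library labelled JunB dep replicate 0 thus exceeded every control. The deletion was limited to cells expressing keratin 5 while the RNA came from whole skin, so this value cannot decide whether the label holds. JunB dep 0 held 5 mucosal epithelium markers at a summed level of 3798 FPKM, where the other 5 libraries reached 1.41 FPKM at the highest. It listed the basal keratin Krt14 at 0, but other epidermal keratinocyte markers went both ways there. Krt5 at 3725 FPKM and Itga6 at 67.0 FPKM were the highest of the 6 mice. Krt15 at 80.7 FPKM and Col17a1 at 92.3 FPKM were the lowest. Control 0 held 10 liver markers at a summed level of 1986 FPKM, where the others reached 38.4 FPKM at the highest. Neutrophil markers summed to 24500 FPKM in JunB dep 0 and 892.7 FPKM in control 0 and to 9.23 to 67.6 FPKM in the others. In JunB dep 0 nearly all of the sum was S100a8, at 24460 FPKM, and the list did not move together. Mpo and Camp were at 32 and 112.6 FPKM in control 0 and at 0.0615 and 4.37 FPKM in JunB dep 0. Csf3r went the other way, at 3.70 FPKM in control 0 and 44.3 FPKM in JunB dep 0. Hair follicle markers summed to 2981 FPKM in control 2 and 5127 FPKM in JunB dep 1 and to 9.46 to 269.6 FPKM in the others. Of 13 lists of cell type markers, only that of skeletal muscle had called genes, with 7 of 10 lower and all 10 without overlap, and its summed level was 17620 to 23980 FPKM in the controls and 1689 to 4081 FPKM in JunB dep. None of its 10 genes was at 0. Over all genes 1.38% were called and 9.16% were lower without overlap, and 0 genes of any kind were called without any 1 control, without JunB dep 1, or with a block for the replicate number or for the number series of the sample titles. Xist was at 27.6 to 34.2 FPKM in control 1, JunB dep 1 and JunB dep 2 and below 0.03 FPKM in the other mice, so sex was unevenly spread over the genotypes. The part of these differences in the results for the IGF genes was not tested, and the number of reads behind each value is unknown.

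No member of the family was called between the genotypes. All 9 entered the test and 0 passed, beside 1.38% of all genes (235, all of them lower in JunB dep). At an unadjusted p below 0.05, 2 members, Igfbp3 and Igfbp6, were lower and 0 were higher, where 6.13% of all genes were lower. Igfbp3 was lower in every JunB dep mouse than in every control, an arrangement met by 9.16% of all genes, and Igf1r was higher in every JunB dep mouse than in every control, met by 5.62%. The median difference of the 9 members was -0.29, against 0.03 over all genes tested, with 5 members negative and 4 positive. With 3 mice against 3, the exact two-sided permutation test of a single gene cannot give a p below 0.1.

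**Figure D1:**
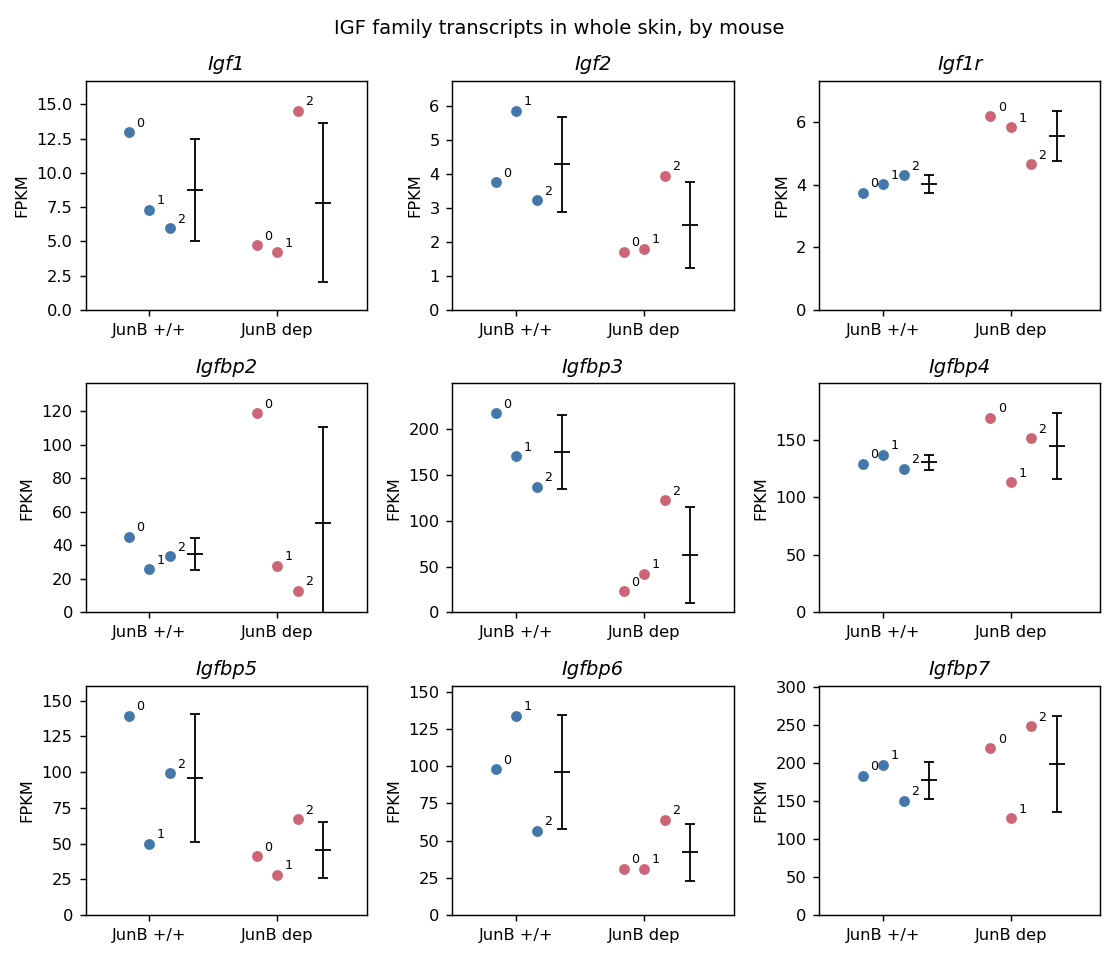
FPKM (vertical axes, linear from 0) of the 9 family members in each mouse, JunB +/+ in blue and JunB dep in red, with the replicate number beside each point. The line and bars give the mean ± SD of 3 mice, and the lower bar of Igfbp2 in JunB dep runs past 0 and ends at the axis. The groups do not overlap for Igfbp3 and Igf1r, and they overlap for the other 7.

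Of the ligands, Igf1, on the plus strand at chr10:87321010-87399792 of the mouse build mm9, had the higher mean in both genotypes. Controls 0, 1 and 2 gave 13.0, 7.33 and 5.98 FPKM and the JunB dep mice gave 4.73, 4.21 and 14.5 FPKM in the same order, a mean of 8.76 ± 3.70 (SD, n = 3) against 7.82 ± 5.81 (SD, n = 3). JunB dep 2 was the highest of the 6 mice and the other JunB dep mice were the lowest, with the 3 controls between them. The difference was -0.29 on the log2(FPKM + 0.5) scale (SE 0.53, 95% interval -1.58 to 0.99, limma adjusted p = 0.851). Its sign rested on single mice, since it was 0.01 at the highest and -0.83 at the lowest with 1 mouse left out. Of the 8 adipocyte markers, 0 were called and none was at 0. Their sum was 2263, 4243 and 1454 FPKM in controls 0, 1 and 2 and 73.2, 2393 and 10330 FPKM in JunB dep 0, 1 and 2. The highest sum was in JunB dep 2, the mouse highest in Igf1, but the other mice did not keep the same order in both. The part of adipocytes in the values of Igf1 was not tested.

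Igf2, which is imprinted and best known as a fetal growth factor, was at 3.75, 5.84 and 3.23 FPKM in the controls and at 1.72, 1.79 and 3.95 FPKM in JunB dep. The means were 4.27 ± 1.39 and 2.49 ± 1.27 FPKM (SD, n = 3 each). JunB dep 0 and 1 lay below all controls, and JunB dep 2 lay within them. The difference of -0.72 (SE 0.37, 95% interval -1.63 to 0.19) was not called (limma adjusted p = 0.722). The antisense gene Igf2os, which shares bases with Igf2, was at no more than 0.0504 FPKM in any mouse.

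H19, the noncoding RNA beside Igf2 and of opposite imprint, is a gene of the wider pathway list and was called. Igf2 lies on the minus strand at chr7:149836673-149852721 (mm9), and H19, also on the minus strand, at chr7:149761434-149764048, 72624 bases away. H19 was at 52.9, 87.3 and 66.5 FPKM in the controls and fell to 17.4, 14.2 and 21.7 FPKM in JunB dep (log2 difference -1.92, SE 0.25, limma adjusted p = 0.0283). The difference kept its sign in every alternative and lost its call without JunB dep 0, where it was -1.91 (adjusted p = 0.0861 in limma). It was also lost without JunB dep 1 and without any 1 control, at -2.09 to -1.73. With a block for the replicate number and with one for the number series of the sample titles, the adjusted p in limma was 0.188 and 0.0883, with the difference nearly the same. H19 is also expressed in skeletal muscle, whose markers were lower in the same mice, and the part of these in its fall was not tested.

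The receptor Igf1r lies on the plus strand at chr7:75097713-75371484 (mm9). It was at 3.75, 4.02 and 4.32 FPKM in the controls and at 6.20, 5.84 and 4.66 FPKM in JunB dep, with means of 4.03 ± 0.284 and 5.57 ± 0.804 FPKM (SD, n = 3 each). Each JunB dep mouse exceeded each control, by a margin that was smallest for JunB dep 2. The ratio of the means was 1.38, and the log2 difference of 0.41 (SE 0.20, 95% interval -0.08 to 0.90) was not called (limma adjusted p = 0.72). The exact permutation test gave p = 0.1, the smallest it can give. The difference was 0.29 to 0.53 over the alternatives. Epidermal keratinocyte markers summed to 6818 to 10860 FPKM in the controls and 6308 to 12010 FPKM in JunB dep. In JunB dep 0 this sum included Krt14 at 0 and Krt1 at 4466 FPKM. The part of keratinocytes in the values of Igf1r was not tested.

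Among the binding proteins the largest difference was in Igfbp3, the main carrier of IGFs in the circulation, whose gene lies on the minus strand at chr11:7106089-7113926 (mm9). It was at 217.3, 170.7 and 137.4 FPKM in the controls and at 23.4, 42.3 and 122.2 FPKM in JunB dep. All 3 JunB dep mice were below the lowest control, JunB dep 2 by little and JunB dep 0 and 1 by more than the controls differed among themselves. The means were 175.1 ± 40.2 and 62.7 ± 52.4 FPKM (SD, n = 3 each), a ratio of 0.358. The log2 difference of -1.78 (SE 0.59, 95% interval -3.23 to -0.34, unadjusted p = 0.0233 in limma) did not pass the correction (adjusted p = 0.471), and the exact permutation test gave p = 0.1. In log2 units the JunB dep mice stood at -2.85, -2.01 and -0.49 from the control mean. Without JunB dep 2 the difference was -2.43 with an adjusted p of 0.0527, the lowest of any member under any alternative. Without the library labelled JunB dep replicate 0 it was -1.25 (limma adjusted p = 0.63), and without both libraries numbered 0, an alternative chosen after seeing the data, it was -1.08 (limma adjusted p = 1).

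Igfbp6, a binding protein that prefers IGF2, lies on the plus strand at chr15:101974793-101979942 (mm9). It was at 97.9, 134.0 and 56.8 FPKM in the controls and at 31.0, 31.0 and 64.0 FPKM in JunB dep. JunB dep 0 and 1 were below every control and JunB dep 2 was above control 2. The means were 96.2 ± 38.7 and 42.0 ± 19.02 FPKM (SD, n = 3 each), and the log2 difference of -1.19 (SE 0.42, 95% interval -2.22 to -0.16, unadjusted p = 0.0298 in limma) did not pass the correction (adjusted p = 0.534). The exact permutation test gave p = 0.2.

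Igfbp5, a binding protein made by fibroblasts and muscle, shared this arrangement in part. It lies on the minus strand at chr1:72904506-72921458 (mm9), 5457 bases from Igfbp2, which is on the plus strand at chr1:72871077-72899048. Igfbp5 was at 139.4, 49.8 and 99.1 FPKM in the controls and at 41.2, 28.1 and 66.9 FPKM in JunB dep, a mean of 96.1 ± 44.9 against 45.4 ± 19.8 FPKM (SD, n = 3 each). Control 1 lay between JunB dep 0 and 2, so the groups overlapped. The log2 difference was -1.04 (SE 0.47, 95% interval -2.19 to 0.11, limma adjusted p = 0.696). Dermal fibroblast markers summed to 2716, 1105 and 1793 FPKM in the controls and 1680, 772 and 982 FPKM in JunB dep. Of the 10, 0 were called and none was at 0 in any mouse. Only Dpt was lower without overlap, beside 9.16% of all genes. Fbln1 and Twist2 had higher means in JunB dep (ratios 1.32 and 1.20), and the other markers of the list had lower means. In log2 units the median of the list stood at 0.11, -0.84 and -0.55 from the control mean in JunB dep 0, 1 and 2. The part of fibroblasts in the values of Igfbp3, Igfbp5 and Igfbp6 was not tested.

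Igfbp2, which circulates after Igfbp3 in abundance and is made in several epithelia, had no settled direction. It was at 45.1, 25.6 and 33.7 FPKM in the controls and at 118.7, 27.8 and 13.0 FPKM in JunB dep. The library labelled JunB dep replicate 0 was the highest and JunB dep 2 the lowest of all 6 mice. The log2 difference was 0.05 (SE 0.78, 95% interval -1.85 to 1.95, limma adjusted p = 0.983), with a sign that rested on single mice. It was -0.81 without JunB dep 0, 0.76 without JunB dep 2 and -0.14 without control 1. JunB dep 0 was also the library that held the mucosal epithelium markers, and the part of those cells in its level was not tested.

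For Igfbp4 and Igfbp7 the controls lay between the JunB dep mice. Igfbp4, an inhibitor of IGF action that is cleaved by the protease PAPP-A, lies at chr11:98902558-98913969 (mm9, plus strand) and was at 129.2, 137.1 and 124.6 FPKM in the controls and at 169, 113.3 and 151.1 FPKM in JunB dep. Its JunB dep mice lay on both sides of the controls, with a log2 difference of 0.13 (SE 0.19, 95% interval -0.35 to 0.60, limma adjusted p = 0.821). Igfbp7, a low-affinity relative that is abundant in vessel walls, lies at chr5:77778265-77837070 (mm9, minus strand) and was at 183.1, 197.4 and 150.2 FPKM in the controls and at 219.4, 127.3 and 248.3 FPKM in JunB dep. Its JunB dep mice were the highest and the lowest of the 6, and the log2 difference was 0.12 (SE 0.29, 95% interval -0.60 to 0.83, limma adjusted p = 0.896). Endothelial markers summed to 56.2 to 77.0 FPKM in the controls and to 58.3, 30.9 and 116.3 FPKM in JunB dep 0, 1 and 2, and the lowest and highest of these were the mice lowest and highest in Igfbp7. JunB dep 0 did not keep this order, since its Igfbp7 was above every control and its endothelial sum below those of controls 0 and 1, and the part of endothelial cells in these values was not tested.

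**Figure D2:**
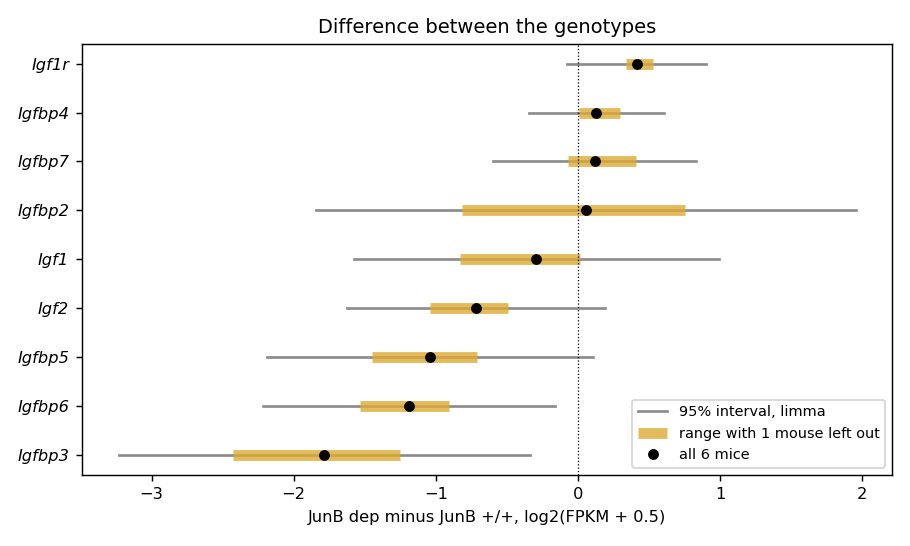
Difference between the genotypes for each member on the log2(FPKM + 0.5) scale (horizontal axis), where values left of the dotted line are lower in JunB dep. Points use all 6 mice, grey lines are 95% intervals from limma and gold bars span the values with 1 mouse left out. The intervals of Igfbp3 and Igfbp6 leave out 0 before correction for the number of genes tested, and the gold bars of Igf1, Igfbp2 and Igfbp7 cross 0.

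Per length of transcript, the mean of each of the 6 binding proteins among the members exceeded those of the ligands and the receptor in both genotypes. In the controls the mean FPKM ran from Igfbp7 through Igfbp3, Igfbp4, Igfbp6, Igfbp5 and Igfbp2 to Igf1, Igf2 and Igf1r. The ranges of neighbours did not overlap between Igfbp3 and Igfbp4, Igfbp5 and Igfbp2, Igfbp2 and Igf1, or Igf1 and Igf2, and overlapped between the others. In JunB dep the order was Igfbp7, Igfbp4, Igfbp3, Igfbp2, Igfbp5, Igfbp6, Igf1, Igf1r and Igf2, and the only neighbours whose ranges did not overlap were Igfbp6 and Igf1, and Igf1r and Igf2. Igfbp3 thus stood above Igfbp4 in all 3 controls, by a ratio of 1.10 to 1.68, and below it in all 3 JunB dep mice, at 0.139, 0.374 and 0.809.

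The 6 binding proteins together summed to 812.1, 714.6 and 601.7 FPKM in the controls and to 602.6, 369.9 and 665.5 FPKM in JunB dep, groups that overlapped. Igfbp3 made up 26.8%, 23.9% and 22.8% of that sum in the controls and 3.89%, 11.4% and 18.4% in JunB dep. Igfbp7 made up 22.5% to 27.6% in the controls and 34.4% to 37.3% in JunB dep, and Igfbp4 15.9% to 20.7% and 22.7% to 30.6%. Because these are shares of 1 sum, a lower share of one gene raises the shares of the others, and the FPKM of Igfbp4 and Igfbp7 overlapped between the genotypes. Their sum exceeded that of the ligands in every mouse, by 48.6 to 65.4 times in the controls and by 93.5, 61.7 and 36.0 times in JunB dep 0, 1 and 2.

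**Figure D3:**
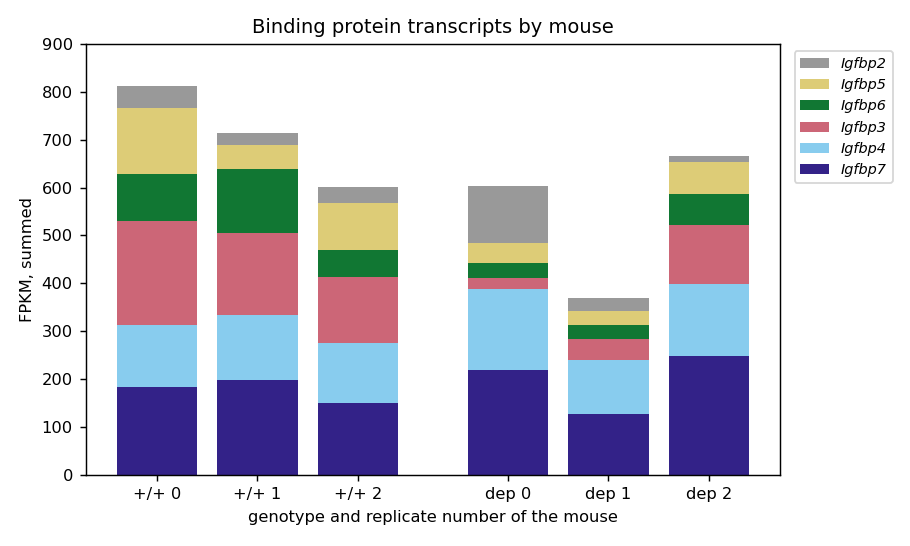
Summed FPKM of the 6 binding proteins (vertical axis from 0) in each mouse, with a coloured segment for each gene. The red Igfbp3 segment is 22.8% to 26.8% of the bar in the controls and 3.89% to 18.4% in JunB dep, and the grey Igfbp2 segment is tallest in the library labelled JunB dep replicate 0.

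The sample titles fell into 2 number series, one with controls 0 and 1 and JunB dep 0, the other with control 2 and JunB dep 1 and 2; what the series stand for is not stated. Within the first and the second series the log2 difference was -3.01 and -0.93 for Igfbp3, -1.87 and -0.34 for Igfbp6, -1.01 and -1.18 for Igfbp5, -1.23 and -0.22 for Igf2, and 0.61 and 0.25 for Igf1r. For these 5 members the sign was the same in both series. For Igf1 it was -0.97 and 0.38 and for Igfbp2 1.79 and -0.80, so the sign differed between the series. Igfbp4 gave 0.34 and 0.07, and Igfbp7 0.21 and 0.24. Each value has a single mouse on one side and no test.

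**Figure D4:**
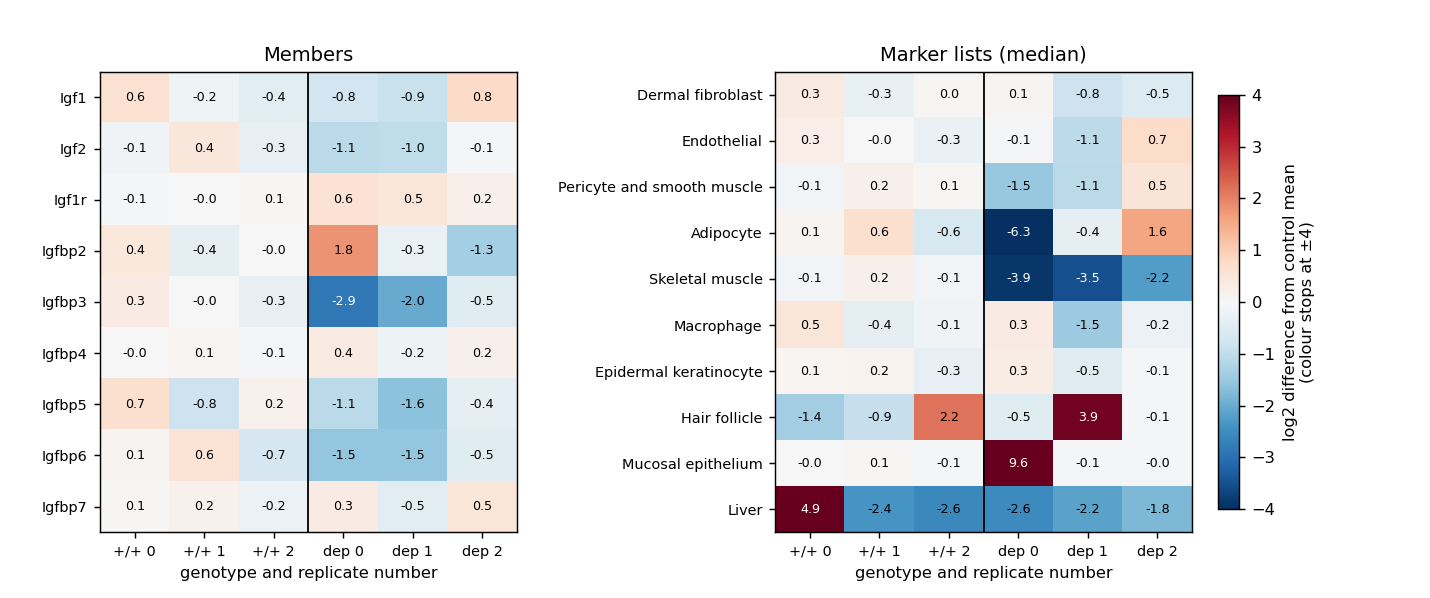
Log2(FPKM + 0.5) in each mouse minus the mean of the 3 controls, for the 9 members (left) and as the median over the genes of 10 cell type marker lists (right), with red for higher and blue for lower. All 3 JunB dep mice are low in skeletal muscle markers, JunB dep 0 and 1 are lower in Igfbp3 and Igfbp6 than JunB dep 2, JunB dep 2 is high in Igf1 and adipocyte markers, and JunB dep 0 stands apart in mucosal epithelium markers. The liver row is set by control 0, which raises the control mean.

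Sequences upstream of the transcription start are shown for the members whose groups did not overlap or whose unadjusted p was below 0.05, because the deleted gene encodes a DNA-binding factor. They are the 250 bases before the RefSeq start, 5′ to 3′ on the gene's strand, taken from a RefSeq table of build GRCm38.p6 and placed on mm9 by an exact match. Capitals mark GGGCGG (a GC box), TATAAA and the AP-1 letters TGANTCA, searched on both strands; TATAAA reads TTTATA on the other strand. The windows lie at chr11:7113927-7114176 (minus strand) for Igfbp3, chr15:101974367-101974616 (plus strand) for Igfbp6 and chr7:75096893-75097142 (plus strand) for Igf1r.
Igfbp3: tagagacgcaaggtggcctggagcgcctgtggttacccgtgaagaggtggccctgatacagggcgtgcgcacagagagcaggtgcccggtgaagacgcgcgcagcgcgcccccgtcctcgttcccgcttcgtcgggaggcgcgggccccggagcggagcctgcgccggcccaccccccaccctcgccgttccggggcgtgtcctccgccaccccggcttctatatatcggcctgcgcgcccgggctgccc
Igfbp6: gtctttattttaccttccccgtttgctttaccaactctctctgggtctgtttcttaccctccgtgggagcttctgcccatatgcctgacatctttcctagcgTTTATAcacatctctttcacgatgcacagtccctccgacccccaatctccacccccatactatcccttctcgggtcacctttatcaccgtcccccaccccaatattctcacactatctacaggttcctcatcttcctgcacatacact
Igf1r: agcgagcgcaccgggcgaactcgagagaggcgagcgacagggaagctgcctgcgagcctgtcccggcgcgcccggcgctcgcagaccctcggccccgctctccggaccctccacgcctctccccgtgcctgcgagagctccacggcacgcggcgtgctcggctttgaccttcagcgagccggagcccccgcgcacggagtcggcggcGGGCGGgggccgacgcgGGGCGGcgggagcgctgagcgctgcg

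The 3 windows differed in base composition. That of Igfbp3 was 73.2% G or C with 32 CpG and none of the marked letters, that of Igfbp6 49.6% with 7 CpG and 1 TATAAA, and that of Igf1r 77.6% with 42 CpG and 2 GC boxes. The letters TGANTCA occurred in 2 of the 13 start windows of the 9 members, and in 6.75% of 32851 RefSeq windows of the same length over all genes. They are printed with 10 bases on each side, for a second start of Igfbp2 (39 bases before it, in the window chr1:72871711-72871960) and for a start of Igf1 (37 bases before it, in the window chr10:87323606-87323855). GGGCGG occurred in 5 of the 13 windows and 32.7% of all, TATAAA in 2 of 13 and 12.4% of all, and TGACGTCA in 0 of 13 and 1.55% of all. A match is a description of letters and not a measured binding site.
Igfbp2: aaacaaaactTGAGTCAgtgaccaccg
Igf1: agctggaactTGAATCActattctgga

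The genes whose log2(FPKM + 0.5) followed each member most closely over the 6 mice by Pearson's r are given as a description. Each r is printed for Igfbp3 only, and the lowest among all genes named here was 0.978, for Igf1 with Ebf3. The points share genotype, tissue makeup and title series, and each named gene is the highest of a ranking over all genes with a mean of 1 FPKM or more. For Igfbp3 they were Cyld (0.998), Prkacb (0.998) and Ecm2 (0.995). For Igfbp6 the closest were Tpsg1, Nxph3 and Lgi4, for Igfbp5 Mmp27, Filip1 and Islr, and for Igf2 Acadvl, Ntf3 and Hoxd9. For Igf1 they were Rab11fip1, Uba7 and Ebf3, for Igf1r Nfx1, Zfp326 and Lrfn4, and for Igfbp2 Dsp, a desmosomal protein, with Cd24a and Fbxo30. Igfbp4 was followed by Hps6, Cd163l1 and Tinagl1, and Igfbp7 by Ifnar2, Sri and Sema6b.

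Of 63 other genes of IGF, insulin and growth hormone signalling, 59 entered the test, and Igfbpl1, Ins2, Insrr and Irs4 were too low. H19 and Trim63 fell and 0 rose, which is 3.39% of the 59 beside 1.38% of all genes. Their median difference was -0.02, against 0.03 over all genes, with 26 positive and 33 negative. Without overlap, 7 were lower (11.9%) and 3 were higher (5.08%), beside 9.16% and 5.62% of all genes.

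Trim63, a ubiquitin ligase of muscle that FOXO factors induce, was at 22.9, 38.3 and 25.2 FPKM in the controls and at 6.19, 5.71 and 9.90 FPKM in JunB dep (log2 difference -1.92, SE 0.29, limma adjusted p = 0.0453). It lost its call without any 1 control and without JunB dep 0 or JunB dep 1, where it was -2.06 to -1.70. The call was also lost with no filter on low values, with rescaling to a sum of 1000000, with the replicate block and with a block for the title series (limma adjusted p = 0.0691, 0.0514, 0.228 and 0.127). Fbxo32, the other such ligase, was at 19.7, 28.0 and 21.7 FPKM and at 3.81, 8.33 and 14.6 FPKM, below every control but not called (log2 difference -1.49, limma adjusted p = 0.411). Both are expressed in muscle, and all 10 skeletal muscle markers were lower in the same mice. The part of muscle in the lower values of Trim63 and Fbxo32 was not tested. Of the 9 FOXO factors and targets listed, 8 were negative, beside 46.6% of all genes tested, and their median was -0.73. Trim63 was the 1 called among them, beside 1.38% of all genes. Foxo4 itself was at 30.6, 33.4 and 32.1 FPKM in the controls and at 11.8, 21.7 and 26.8 FPKM in JunB dep. It was below every control but not called (limma adjusted p = 0.672).

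Grb14, an adaptor that inhibits the insulin receptor, was at 31.8, 37.4 and 26.9 FPKM in the controls and at 1.53, 6.77 and 6.81 FPKM in JunB dep. The groups were far apart, but JunB dep 0 widened the spread, and the log2 difference of -2.76 (SE 0.53) was not called (limma adjusted p = 0.0986). Without JunB dep 0 it was -2.15 and was called (adjusted p = 0.0459). No other alternative gave an adjusted p below 0.05, and without both libraries numbered 0 it was -2.14 with a limma adjusted p of 0.297. Kazald1, a secreted relative of the binding proteins, was at 9.52, 8.43 and 6.48 FPKM against 0.939, 3.43 and 4.66 FPKM, and Stat5b, a transcription factor of growth hormone signalling, at 17.01, 16.1 and 14.2 FPKM against 7.47, 7.44 and 13.1 FPKM. Neither was called (limma adjusted p = 0.493 and 0.487).

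Stc2, a stanniocalcin that inhibits PAPP-A and so the cleavage of Igfbp4, was at 2.57, 3.17 and 2.25 FPKM in the controls and at 11.4, 3.86 and 18.6 FPKM in JunB dep. All JunB dep mice were higher, JunB dep 1 by little, and the log2 difference of 1.67 (SE 0.55) was not called (limma adjusted p = 0.455). Akt1, the kinase downstream of the receptor, was at 51.4, 49.7 and 55.1 FPKM against 86.5, 62.5 and 57.6 FPKM, a log2 difference of 0.38 (adjusted p = 0.72 in limma). Rictor, a subunit of the mTOR kinase complex, differed without overlap by only 0.12 on the log2 scale.

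**Figure D5:**
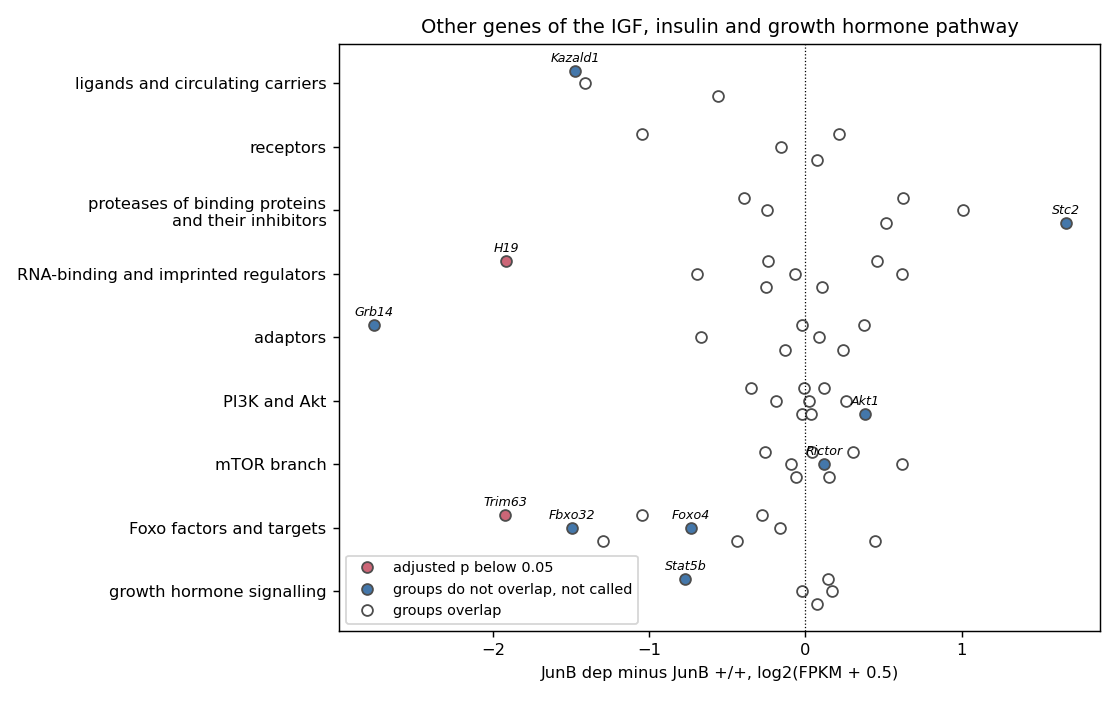
Difference between the genotypes on the log2(FPKM + 0.5) scale (horizontal axis) for the 59 pathway genes tested, in rows by role. Red points are the called genes H19 and Trim63, blue points are genes whose groups do not overlap without a call, and open points are genes whose groups overlap.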

How the data were processed

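RNA-seq of poly-A RNA from whole skin gave 1 table of deposited FPKM values per gene, 1 column per mouse. The submitters' processing notes name FastQC, TopHat2 2.0.10, Bowtie 1.0.0, SAMtools 0.1.19, Cufflinks and mm9; reads were aligned with TopHat2, and the tool behind the FPKM the authors deposited, and whether it used strand, is not stated. No reads were recovered, so the count test of the study was not repeated, and depth and counting error are unknown. Each replicate is a mouse, and p-values measure the spread between mice.

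Differences were fitted with limma 3.58.1 (R 4.3.3, trend, two-sided) on log2(FPKM + 0.5) over genes averaging 0.1 FPKM or more, with Benjamini-Hochberg adjustment over all of them. The fit was tested on simulated data. Members, the pathway list and the 13 marker lists were chosen with earlier results of these data known. Named genes were the members, pathway genes called or without overlap, and other pathway genes with their values only. Markers with values where they moved with a member were named, as were Junb and Xist. The 3 genes most alike to each member averaging 1 FPKM or more were named too. Igf2os and the marker genes named singly, among them Krt14 and Dpt, were named after their values were seen. Promoters came from RefSeq (GRCm38.p6) and annotation from GENCODE on mm9. Each member was recomputed under 17 alternatives and 1 chosen after seeing the data.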

Additional observations from a re-analysis of the deposited data

How the results depend on the processing

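No member had an adjusted p below 0.05 under any alternative, and with all 6 mice none was below 0.1. Igf2, Igf1r, Igfbp3, Igfbp4, Igfbp5 and Igfbp6 kept their direction in all 18 alternatives, with Igfbp3 between -2.43 and -1.08, Igfbp6 between -1.53 and -0.91 and Igfbp5 between -1.45 and -0.69; Igfbp4 ran from 0.0014 to 0.29 and was 0.0068 without JunB dep 0. The sign turned for Igf1 (-0.83 to 0.012 with 1 mouse left out, 0.24 without both libraries numbered 0, an alternative chosen after seeing the data), for Igfbp2 (-0.025 with quantile normalization, -0.81 to 0.76 with 1 mouse left out, -0.61 without both libraries numbered 0) and for Igfbp7 (-0.072 to 0.41 with 1 mouse left out). The 235 calls over all genes became 0 with a replicate block, 0 with a block for the title series and 0 without both libraries numbered 0, and ranged from 0 to 251 with 1 mouse left out: 0 without any 1 control or without JunB dep 1, 131 without JunB dep 0 and 251 without JunB dep 2. Those fits have fewer mice or fewer residual degrees of freedom. The count of called pathway genes was 2, and it was 1 with no filter on low values, 1 with rescaling to a sum of 1000000, 0 with the replicate block, 0 with the block for the title series and 0 without both libraries numbered 0, and ranged from 0 to 2 with 1 mouse left out. The 1 gene called without JunB dep 0 was Grb14, and neither H19 nor Trim63 was called there. The cause of these changes was not tested. Mice with the same replicate number did not deviate together (correlations of 0.12, -0.23 and -0.43), so the numbers were not taken as pairs and the replicate block is no paired analysis. Scaling moved the median difference over all genes by at most 0.04 on the log2 scale.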

Other observations

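Igfbp1, a binding protein made mainly in liver, was at 8.62 FPKM in control 0 and at no more than 0.0317 FPKM in any other mouse, and control 0 was also the library with 1986 FPKM of summed liver markers. Igfals, the acid-labile subunit that joins Igfbp3 in the circulating complex, was at 9.46, 5.32 and 4.04 FPKM in the controls and at 0.953, 4.54 and 10.7 FPKM in JunB dep. Ghr, the growth hormone receptor, was at 58.0, 70.5 and 38.6 FPKM and at 8.47, 28.0 and 72.3 FPKM, and Irs1, an adaptor of the insulin and IGF1 receptors, at 5.53, 5.60 and 5.49 FPKM and at 0.781, 5.06 and 7.19 FPKM. For all 3 of these the lowest value was in JunB dep 0, which had the lowest adipocyte marker sum (73.2 FPKM), and the highest was in JunB dep 2, which had the highest (10330 FPKM). None was called in limma (adjusted p = 0.806 for Igfals, 0.722 for Ghr and 0.741 for Irs1), and the part of adipose tissue in these values was not tested.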
